A study of Homo sapiens with 16 samples.

Results

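The PGC-1 coactivators and the transcription factors they work with are described here in 2 human breast cancer cell lines given MitoQ. The 6 genes were picked by symbol, and each had 1 row among the 35106 gene rows of the count table. They were the coactivator genes PPARGC1A, PPARGC1B and PPRC1 and the transcription factor genes NRF1, GABPA and ESRRA. RNA sequencing was done on 5 libraries of MDA-MB-231 cells given 500 nM MitoQ for 48 h, 5 of MDA-MB-231 controls, 3 of SKBR3 cells given the same dose for the same time and 3 of SKBR3 controls. MDA-MB-231, used at passage 25, is triple-negative and mesenchymal-like. SKBR3, used at passage 10, carries extra copies of ERBB2, and a difference of line cannot be told apart from one of passage. MitoQ is a ubiquinone joined to a triphenylphosphonium cation that accumulates in mitochondria. Both lines came from pleural effusions of adenocarcinomas, and what the control cells received is not given in the sources used here. Nothing in those sources says that replicates came from separate cultures, so p-values measure the spread between these libraries, which may be technical.

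The PGC-1 family links the demand for energy to the nuclear genes of mitochondria. Its members do not bind DNA themselves but are recruited by factors such as nuclear respiratory factor 1 (NRF-1), GA-binding protein (GABP, also called NRF-2) and the orphan nuclear receptor ERR-alpha, which sit on promoters of respiratory chain, import and mitochondrial DNA maintenance genes. PGC-1alpha is known best from brown fat, muscle and liver, where cold, exercise and fasting induce it, while PRC, the product of PPRC1, is known as a growth-regulated member of proliferating cells. NRF-1 is a different protein from NFE2L2, the antioxidant factor that is also called NRF2.

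The promoters of ESRRA and GABPA hold letters of the sites that NRF-1 and GABP bind, and that of PPRC1 holds none of them. These 3 sequences are shown so that the letters can be seen beside the values of the genes. The RefSeq promoter table (GRCh38.p14) holds windows of 250 bases before to 50 after a start site for 5 of the 6 genes, NRF1 being the other. The windows are written 5′ to 3′, and capitals mark the motif matches. They lie at chr11:64305274-64305573 (ESRRA, plus strand), chr21:25734722-25735021 (GABPA, plus strand) and chr10:102132790-102133089 (PPRC1, plus strand).
ESRRA: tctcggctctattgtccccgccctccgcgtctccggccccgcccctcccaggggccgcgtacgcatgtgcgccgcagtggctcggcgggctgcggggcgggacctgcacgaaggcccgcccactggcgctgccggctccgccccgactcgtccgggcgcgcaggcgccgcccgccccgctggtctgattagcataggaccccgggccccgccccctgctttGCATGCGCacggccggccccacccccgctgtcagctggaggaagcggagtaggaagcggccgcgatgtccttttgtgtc
GABPA: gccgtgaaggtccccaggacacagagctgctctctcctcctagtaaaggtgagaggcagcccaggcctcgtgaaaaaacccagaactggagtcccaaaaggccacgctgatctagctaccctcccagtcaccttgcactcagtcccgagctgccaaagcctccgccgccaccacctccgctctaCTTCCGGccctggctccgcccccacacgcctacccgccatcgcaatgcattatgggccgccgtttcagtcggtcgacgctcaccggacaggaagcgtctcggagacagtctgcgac
PPRC1: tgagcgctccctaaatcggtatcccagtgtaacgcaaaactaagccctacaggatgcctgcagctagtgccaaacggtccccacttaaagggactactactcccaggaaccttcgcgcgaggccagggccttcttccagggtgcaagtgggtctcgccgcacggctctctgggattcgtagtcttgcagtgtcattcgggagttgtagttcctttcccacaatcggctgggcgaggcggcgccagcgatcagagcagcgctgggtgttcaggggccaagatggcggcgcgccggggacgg

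The letters searched on both strands were GCATGCGC (core of the NRF-1 site), CCGGAAG (ETS site bound by GABP), AAGGTCA (core of the ERR site) and TGACGTCA (cyclic AMP response element), and no matches overlapped. The ESRRA window held the NRF-1 core 29 bases before the start, letters found in 3.05% of the 35116 promoters of the table. The GABPA window held the GABP site on the minus strand, its written letters starting 66 bases before the start, and 10.3% of promoters held it. The windows of PPRC1, PPARGC1B and PPARGC1A (2 start sites) held none of the 4 strings, of which the ERR core occurred in 3.92% and the cyclic AMP element in 1.85% of promoters. The PPARGC1B window (chr5:149771690-149771989) lay inside the gene, away from its annotated start. Of the PPARGC1A windows, that at chr4:23881052-23881351 lay inside the gene and that at chr4:24472856-24473155 outside its annotated span. The annotated starts of these genes were therefore not searched, and strings there are not excluded. A match describes letters and not binding.

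Depth was 19844695 to 25904852 estimated counts per library in MDA-MB-231 with MitoQ, 23612986 to 29294865 in its controls, 19157771 to 27739692 in SKBR3 with MitoQ and 14723152 to 27841144 in its controls. The line labels were checked with markers: the summed level of 10 ERBB2-amplicon and luminal genes was 11963 to 14279 CPM (counts scaled to a fixed library size) in SKBR3 libraries and 1035 to 1266 CPM in MDA-MB-231 libraries, and that of 9 mesenchymal genes was 69.5 to 90.2 CPM in SKBR3 and 8216 to 9812 CPM in MDA-MB-231. Summed leukocyte markers stayed at or under 2.43 CPM, and those of fibroblasts and endothelium at or under 15.6 CPM, in every library. On the first principal component SKBR3 control 3 (-5.6) lay closer to the treated libraries (9.5 to 13.6) than controls 1 and 2 did (-15.4 and -14.2), and values without it are given below. Levels are CPM normalised over all 16 libraries, given per library in replicate order or as mean ± SD, where n = 5 for each MDA-MB-231 group and n = 3 for each SKBR3 group. A change is a log2 fold change ± SE, its adjusted p from edgeR covers all genes tested, and it is called where that p is under 0.05.

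In MDA-MB-231 the mRNAs of PGC-1beta, NRF-1 and ERR-alpha were lower with MitoQ, while those of PGC-1alpha, PRC and GABPA did not pass the test. In SKBR3 the mRNAs of PRC and ERR-alpha passed the test as higher and that of GABPA as lower with MitoQ, calls that depend on single libraries. The effect of MitoQ on PPARGC1B, NRF1 and ESRRA differed between the lines when the difference itself was tested. Of the 6 genes tested in MDA-MB-231, 3 were called, all lower, where 57.5% of all genes tested were called and 27.6% were called lower. Of the 5 tested in SKBR3, 3 were called, 2 higher and 1 lower, where 28.0% of all genes were called, 13.8% higher and 14.1% lower. No fit that left out 1 SKBR3 library kept all 3 calls: 0 to 2 were made, and 0 without MitoQ 2 or MitoQ 3. The groups did not overlap for 3 of the 6 genes in MDA-MB-231, all lower, as for 44.1% of all genes (22.9% lower), and for 4 of the 5 in SKBR3, 3 higher and 1 lower, as for 40.0% of all genes (21.3% higher, 18.7% lower).

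**Figure D1:**
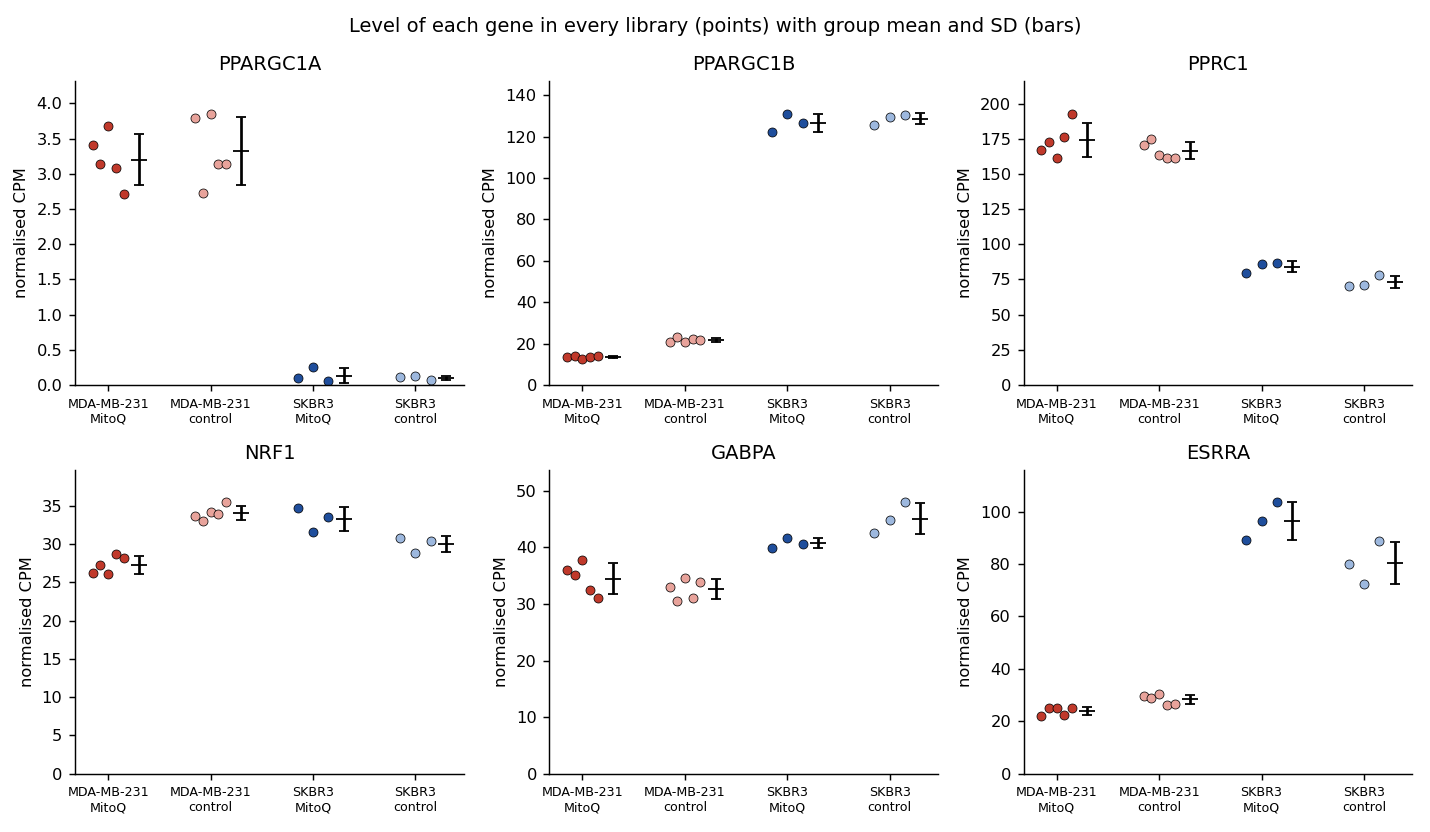
Normalised CPM (linear axis from 0) of each of the 6 genes in every library, by line and treatment, with the group mean and SD beside the points. PPARGC1B and ESRRA stood far higher in SKBR3, PPARGC1A and PPRC1 higher in MDA-MB-231, and NRF1 and GABPA lay between 26.0 and 47.9 CPM in all libraries of both lines.

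PPARGC1A encodes PGC-1alpha, the inducible coactivator of thermogenesis, gluconeogenesis and muscle mitochondria (ENSG00000109819, chromosome 4, 23755041 to 23904089, GRCh38, minus strand). It was at 3.40, 3.14, 3.67, 3.09 and 2.71 CPM in MDA-MB-231 with MitoQ, against 3.80, 2.72, 3.86, 3.14 and 3.14 CPM in the controls. The groups overlapped, and the log2 fold change was -0.04 ± 0.13 (adjusted p = 0.833, 95% interval -0.30 to 0.22). The sign of this value turned without MDA-MB-231 control 1, control 3 or MitoQ 5. In SKBR3 the gene was near 0: 2, 7 and 1 counts in the MitoQ libraries and 2, 2 and 2 in the controls. It did not pass the filter on low counts there, so no test of MitoQ on it in SKBR3 is reported. Summed over the libraries, 10 counts with MitoQ gave 0.150 CPM (95% exact Poisson interval 0.0717 to 0.275) and 6 counts in the controls gave 0.0982 CPM (0.0360 to 0.214), intervals that cover counting error only.

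PPARGC1A mRNA was low in MDA-MB-231 and far lower in SKBR3. The control level in SKBR3 was 0.0294 of that in MDA-MB-231 (95% counting interval 0.0107 to 0.0646), 6 against 419 counts. With MitoQ it was 0.0468 (0.0223 to 0.0871), 10 against 384 counts. These intervals come from summed counts, leave out the spread between libraries and are not a test of the lines. The gene entered the comparison of lines only through MDA-MB-231, so no test of that difference is given. In bulk RNA fewer cells expressing a gene and less RNA per cell cannot be told apart.

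PPARGC1B encodes PGC-1beta, a coactivator of mitochondrial and lipid synthesis genes that binds ERR-alpha and SREBP-1 (ENSG00000155846, chromosome 5, 149730298 to 149855022, plus strand). In MDA-MB-231 it was at 13.5, 14.0, 12.7, 13.3 and 14.2 CPM with MitoQ, against 20.8, 23.1, 20.8, 22.3 and 21.6 CPM in the controls. The lowest control was above the highest MitoQ library. The log2 fold change of -0.66 ± 0.061 (adjusted p = 2.33e-08), a 1.58-fold fall, was larger in size than that of 84.4% of all genes tested in this line. Leaving out any library kept it between -0.68 and -0.63.

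SKBR3 held far more PPARGC1B and showed no call. Its libraries had 122, 131 and 126 CPM with MitoQ, against 125, 130 and 131 CPM in the controls, and the groups overlapped. The log2 fold change was -0.04 ± 0.039 (adjusted p = 0.466, 95% interval -0.12 to 0.03). The effect in SKBR3 minus that in MDA-MB-231 was 0.66 ± 0.072 on the log2 scale (adjusted p = 1.37e-07), in a comparison where 34.1% of all genes were called.

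PPRC1 encodes PRC, the largest and serum-inducible member of the family (ENSG00000148840, chromosome 10, 102132994 to 102150331, plus strand). It was at 167, 173, 162, 176 and 193 CPM in MDA-MB-231 with MitoQ, against 171, 175, 164, 161 and 161 CPM in the controls. The groups overlapped, and the log2 fold change of 0.09 ± 0.049 did not pass the test (adjusted p = 0.139), but did when libraries were scaled by plain totals (0.15, adjusted p = 0.0101).

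In SKBR3, PPRC1 stood at 79.8, 85.9 and 86.9 CPM with MitoQ, against 70.3, 71.3 and 78.3 CPM in the controls. Every MitoQ library was above every control, as for 40.0% of all genes in either direction, and the log2 fold change was 0.17 ± 0.048 (adjusted p = 0.0132). Without SKBR3 control 3, the highest control, it was 0.24 (adjusted p = 0.00102). The call was lost without SKBR3 control 1, MitoQ 2 or MitoQ 3, with adjusted p between 0.0517 and 0.0579. The difference of effect between the lines was 0.13 ± 0.079 (adjusted p = 0.218, 95% interval -0.02 to 0.29) and passed only without MDA-MB-231 MitoQ 5, the highest library (0.18, adjusted p = 0.0486).

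NRF1 encodes NRF-1, which activates nuclear genes for cytochrome c, respiratory subunits and TFAM (ENSG00000106459, chromosome 7, 129611714 to 129757082, plus strand). In MDA-MB-231 it was at 26.2, 27.3, 26.0, 28.6 and 28.1 CPM with MitoQ, against 33.7, 33.0, 34.2, 33.9 and 35.4 CPM in the controls. The groups lay apart, and the log2 fold change was -0.30 ± 0.050 (adjusted p = 4.43e-05), a 1.23-fold fall.

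The SKBR3 values went the other way. NRF1 was at 34.7, 31.6 and 33.5 CPM with MitoQ, against 30.8, 28.8 and 30.3 CPM in the controls. The groups did not overlap, but the log2 fold change of 0.12 ± 0.061 did not pass the test (adjusted p = 0.152). The difference of effect, SKBR3 minus MDA-MB-231, was 0.47 ± 0.079 (adjusted p = 6.06e-05) and held without any one library, between 0.44 and 0.51.

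GABPA encodes the ETS-domain, DNA-binding subunit of GABP (ENSG00000154727, chromosome 21, 25734570 to 25772460, plus strand). In MDA-MB-231 it was at 35.9, 35.2, 37.8, 32.4 and 31 CPM with MitoQ, against 33.0, 30.6, 34.5, 31 and 33.9 CPM in the controls. The groups overlapped, with a log2 fold change of 0.10 ± 0.062 (adjusted p = 0.181), and plain library totals brought it past the test (0.16, adjusted p = 0.0388).

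In SKBR3, GABPA was at 39.9, 41.7 and 40.5 CPM with MitoQ, against 42.5, 44.7 and 47.9 CPM in the controls. Every MitoQ library lay below every control, and the log2 fold change was -0.17 ± 0.055 (adjusted p = 0.0329). This call did not hold under several settings. Without SKBR3 control 3, the highest library, the value was -0.11 (adjusted p = 0.189), and of the 6 fits that leave out 1 library 1 kept it, the one without SKBR3 control 1. DESeq2 (adjusted p = 0.0810), plain library totals (adjusted p = 0.0569) and a single fit over 16 libraries (adjusted p = 0.179) did not make it either. The difference of effect between the lines, -0.23 ± 0.092, did not pass (adjusted p = 0.0620), though it did in DESeq2 (-0.25, adjusted p = 0.0332) and under several other settings.

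The 5′ end of GABPA faces ATP5PF, which encodes coupling factor 6 of ATP synthase on the minus strand, and 413 bases of their exons overlap. Whether the counting used strand is not given in the sources used here, so reads of that stretch may not be told apart. ATP5PF was lower with MitoQ in both lines, at -0.22 ± 0.049 in MDA-MB-231 (adjusted p = 0.000689) and -0.27 ± 0.058 in SKBR3 (adjusted p = 0.00314), while GABPA lay at 0.10 in MDA-MB-231 and, like ATP5PF, was called lower in SKBR3 (-0.17). Of the 31-base stretches of GABPA transcripts 18.4% also occur in other genes, most in the pseudogene GABPAP, which had 3 or fewer counts in all.

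ESRRA encodes ERR-alpha, an orphan receptor that needs no ligand and is activated by PGC-1 binding (ENSG00000173153, chromosome 11, 64305572 to 64316743, plus strand). In MDA-MB-231 it was at 22.0, 25.2, 25.1, 22.3 and 25.1 CPM with MitoQ, against 29.8, 28.7, 30.3, 26.3 and 26.6 CPM in the controls. All MitoQ libraries lay below all controls, and the log2 fold change was -0.22 ± 0.064 (adjusted p = 0.00533).

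In SKBR3, ESRRA was at 89.1, 96.3 and 104 CPM with MitoQ, against 79.9, 72.5 and 88.8 CPM in the controls. The lowest MitoQ library was just above the highest control, which was control 3. The log2 fold change was 0.23 ± 0.063 (adjusted p = 0.0168), and 0.32 without control 3 (adjusted p = 0.000307). It was lost without SKBR3 control 1, MitoQ 2 or MitoQ 3, with adjusted p between 0.0547 and 0.0709. The difference of effect, SKBR3 minus MDA-MB-231, was 0.50 ± 0.099 (adjusted p = 0.000309) and held without any one library. ESRRA shares 284 exon bases with TRMT112 on the other strand, and as strand use is not given, reads of that stretch may not be told apart. Of its 31-base stretches 13.2% occur in other genes, most in ESRRAP1, which had 1 count in all libraries together. The level of TRMT112 was 111 ± 5.04 CPM in MDA-MB-231 controls, above that of ESRRA, and 70.5 ± 5.67 CPM in SKBR3 controls. TRMT112, a cofactor of methyltransferases, was lower with MitoQ in both lines (-0.25 ± 0.050 in MDA-MB-231, adjusted p = 0.000242, and -0.20 ± 0.060 in SKBR3, adjusted p = 0.0228), the SKBR3 call being lost without control 1, MitoQ 1 or MitoQ 2 (adjusted p 0.106 to 0.141) and in the single fit over 16 libraries (0.0938).

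**Figure D2:**
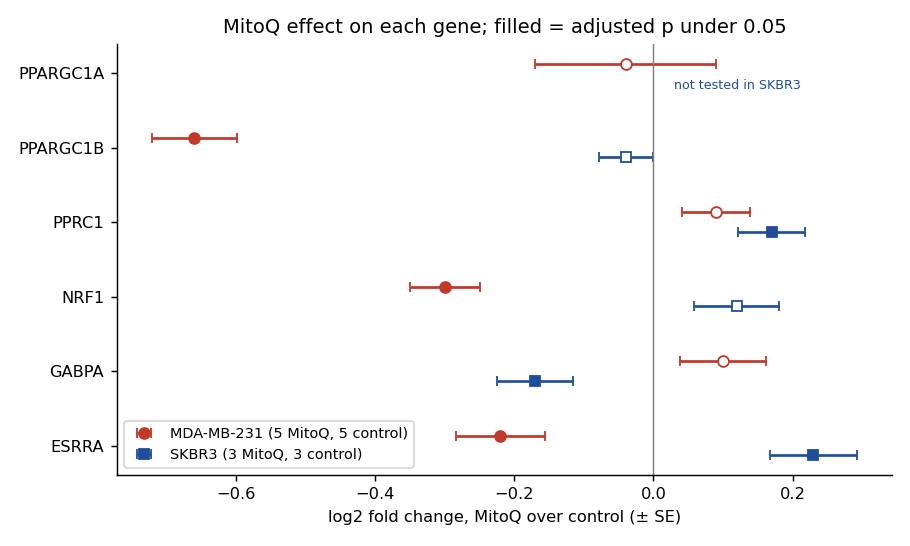
Log2 fold change of MitoQ over control with its SE for each gene in MDA-MB-231 (circles) and SKBR3 (squares), filled where the adjusted p was under 0.05. PPARGC1B fell in MDA-MB-231 (-0.66) and lay at -0.04 in SKBR3, and ESRRA lay at -0.22 in MDA-MB-231 and 0.23 in SKBR3.

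The 3 genes whose MitoQ effect was called different were all higher in SKBR3 relative to MDA-MB-231, where 19.1% of all genes tested were called in that direction and 14.9% in the other. Under the scaling used 56.1% of the genes called in this comparison were higher, and 41.6% with plain library totals. PPARGC1B, NRF1 and ESRRA were called under each of the alternatives run for this comparison. For PPARGC1A, which entered this fit only through MDA-MB-231, no test is given: the fitted difference of 0.62 rests on the few SKBR3 counts and was -0.29 without SKBR3 MitoQ 2.

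PPARGC1A aside, 3 of the other genes were called higher and 2 lower in SKBR3 controls than in MDA-MB-231 controls. Of all genes tested 86.5% were called, 42.0% higher and 44.4% lower. The control groups did not overlap for 83.0% of all genes (39.4% higher, 43.5% lower in SKBR3). PPARGC1B was 5.99-fold higher in SKBR3 controls than in MDA-MB-231 controls, at 129 ± 2.71 and 21.7 ± 0.975 CPM (log2 2.58 ± 0.047, adjusted p = 5.07e-22). ESRRA was 2.88-fold higher, at 80.4 ± 8.18 CPM in SKBR3 and 28.3 ± 1.81 CPM in MDA-MB-231 (log2 1.53 ± 0.063, adjusted p = 3.74e-15). GABPA was higher by less, at 45.1 ± 2.75 CPM in SKBR3 and 32.6 ± 1.77 CPM in MDA-MB-231 (log2 0.49 ± 0.058, adjusted p = 9.86e-08).

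PPRC1 was lower in SKBR3 controls, at 73.3 ± 4.36 CPM, against 166 ± 6.09 CPM in MDA-MB-231 controls (log2 -1.16 ± 0.047, adjusted p = 7.84e-16). NRF1 was lower by little, at 30.0 ± 1.04 CPM in SKBR3 and 34.1 ± 0.885 CPM in MDA-MB-231 (log2 -0.16 ± 0.054, adjusted p = 0.00860), and this call was lost with a filter at 1 CPM (-0.08, adjusted p = 0.150) and without MDA-MB-231 control 3 (-0.12, adjusted p = 0.0699). The order of the 4 groups differed by gene. For PPARGC1B and ESRRA it ran from MDA-MB-231 with MitoQ through its controls to the SKBR3 groups, of which those of PPARGC1B did not differ beyond their spread. For PPRC1 it ran from SKBR3 controls through SKBR3 with MitoQ to the MDA-MB-231 groups, which overlapped. For GABPA it ran from MDA-MB-231 controls through MDA-MB-231 with MitoQ, which overlapped, to SKBR3 with MitoQ and SKBR3 controls. For NRF1 the lowest group was MDA-MB-231 with MitoQ, next SKBR3 controls, then SKBR3 with MitoQ, whose range overlapped that of the MDA-MB-231 controls.

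Levels of different genes were set side by side as CPM per kb of exon sequence. In MDA-MB-231 PPRC1 stood first, at 28.6 ± 1.95 CPM per kb with MitoQ and 27.3 ± 1.0 in the controls. NRF1, GABPA and ESRRA followed between 6.01 and 9.35 CPM per kb, then PPARGC1B at 1.05 ± 0.0449 with MitoQ and 1.69 ± 0.0756 in the controls, and PPARGC1A at 0.295 ± 0.0333 and 0.306 ± 0.0445. In SKBR3 ESRRA stood first, at 31.8 ± 2.38 CPM per kb with MitoQ and 26.5 ± 2.70 in the controls. PPRC1 followed at 13.8 ± 0.630 with MitoQ and 12.0 ± 0.715 in the controls, then PPARGC1B at 9.82 ± 0.343 and 9.97 ± 0.211. NRF1 and GABPA lay between 7.27 and 8.30 CPM per kb, and PPARGC1A at 0.0124 and 0.00963 CPM per kb. The lengths of the transcripts in use are not known from gene counts, and with the longest transcript as the length the value of PPARGC1A in MDA-MB-231 with MitoQ was 0.507 CPM per kb.

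**Figure D3:**
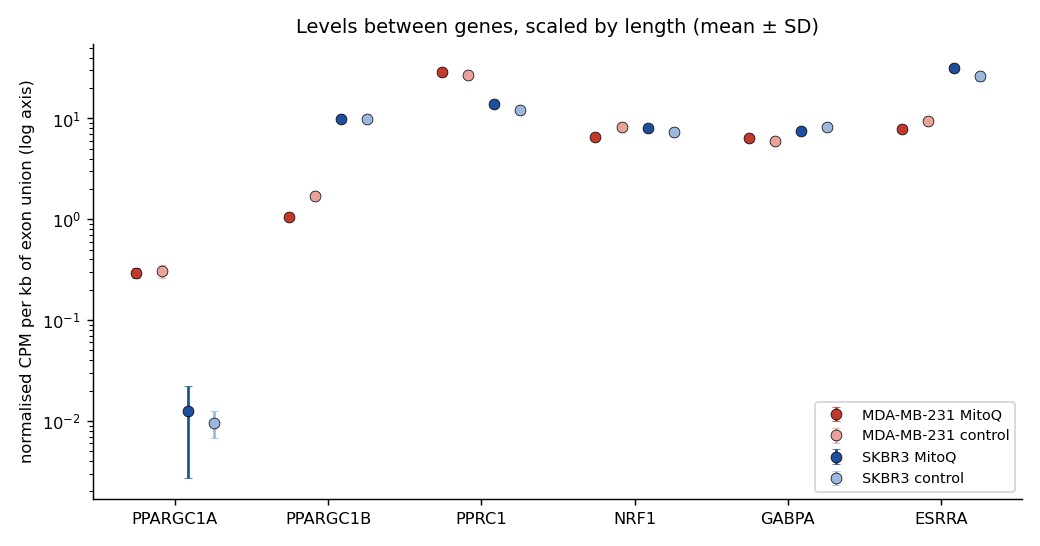
Mean CPM per kb of exon union (log axis) with SD for each gene in the 4 groups. PPARGC1A lay lowest in each group, at 0.295 CPM per kb in MDA-MB-231 with MitoQ and 0.0124 in SKBR3 with MitoQ, while NRF1 and GABPA stayed between 6.01 and 8.30.

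The makeup of the coactivator family differed between the lines more than its sum. The 3 mRNAs together came to 29.9 ± 2.0 CPM per kb in MDA-MB-231 with MitoQ, 29.3 ± 1.02 in its controls, 23.6 ± 0.923 in SKBR3 with MitoQ and 22.0 ± 0.880 in its controls. In MDA-MB-231 PPRC1 made up 95.5% ± 0.280 of this sum with MitoQ and 93.2% ± 0.208 in the controls, and PPARGC1B 3.51% ± 0.135 with MitoQ and 5.76% ± 0.264 in the controls. In SKBR3 PPARGC1B made up 41.5% ± 0.697 with MitoQ and 45.3% ± 1.11 in the controls, and PPRC1 58.4% ± 0.723 and 54.6% ± 1.13. PPARGC1A made up 0.756% to 1.23% in the MDA-MB-231 libraries and at most 0.0962% in those of SKBR3. In both lines the PPARGC1B share was lower in every MitoQ library than in every control. PPARGC1B itself was lower with MitoQ in MDA-MB-231, while PPRC1 was called higher in SKBR3, a call lost without control 1, MitoQ 2 or MitoQ 3. These shares are descriptions, with no test.

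**Figure D4:**
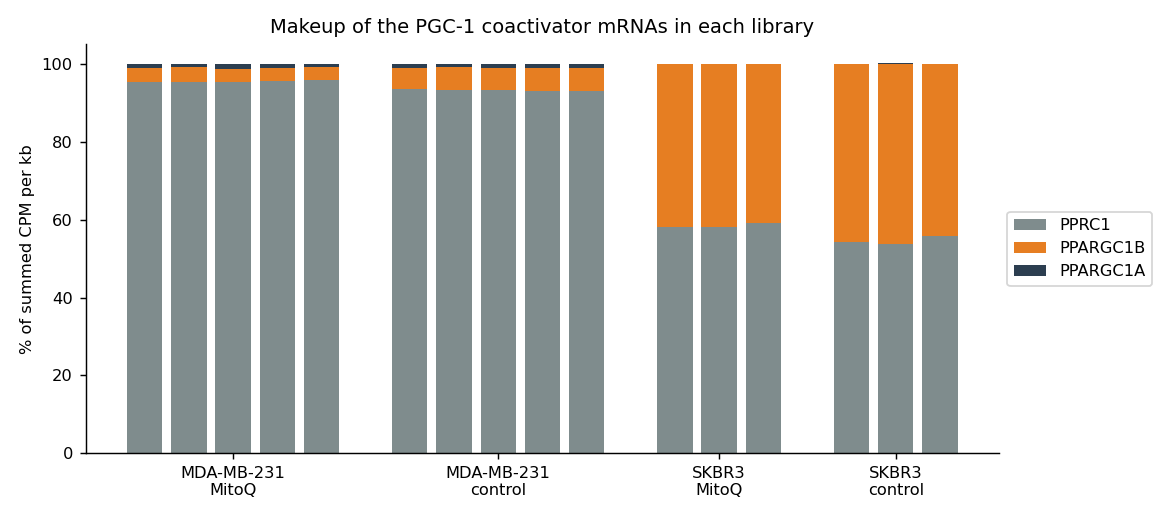
Share of PPRC1, PPARGC1B and PPARGC1A in their summed CPM per kb, 1 bar per library. PPRC1 filled 92.9% to 95.9% of each MDA-MB-231 bar, while PPARGC1B took 40.7% to 46.2% of each SKBR3 bar.

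Genes around the 6 were followed in 5 lists drawn from textbook knowledge of the pathway, with earlier results of these data known. Among 21 partners and subunits, 20 were tested in MDA-MB-231, of which 6 were higher and 6 lower with MitoQ, and 18 in SKBR3, of which 6 were higher and 2 lower. Of all genes, 29.9% were higher and 27.6% lower in MDA-MB-231, near the list's shares, and 13.8% higher and 14.1% lower in SKBR3. The SKBR3 count of 8 fell to 5 without SKBR3 MitoQ 2. The median log2 fold change was 0.01 in MDA-MB-231 and 0.05 in SKBR3, beside 0.012 and -0.001 over all genes. The beta subunits of GABP, which carry its activation domain, moved apart in MDA-MB-231: GABPB1 was at 32.1 ± 1.69 CPM with MitoQ and 41.9 ± 0.771 in the controls (-0.36 ± 0.051, adjusted p = 6.29e-06), and GABPB2 at 39.7 ± 4.72 with MitoQ and 25.6 ± 0.967 in the controls (0.65 ± 0.071, adjusted p = 2.53e-07). In SKBR3 GABPB1 lay at -0.18 ± 0.069 (adjusted p = 0.0660) and GABPB2 at 0.27 ± 0.093 (adjusted p = 0.0396), a call that was lost without SKBR3 control 2, control 3, MitoQ 1 or MitoQ 2 (adjusted p 0.0552 to 0.164).

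Some nuclear receptor genes among the partners passed the test. In MDA-MB-231 PPARA, the receptor of fatty acid oxidation genes, rose to 36.0 ± 2.21 CPM with MitoQ, against 21.8 ± 1.39 in the controls (0.74 ± 0.060, adjusted p = 4.36e-09), and PPARD to 84.0 ± 7.83, against 54.2 ± 1.49 (0.66 ± 0.056, adjusted p = 9.50e-09). PPARG, the adipogenic receptor, fell (-0.63 ± 0.046, adjusted p = 9.82e-10), as did the thyroid hormone receptor gene THRA (-0.47 ± 0.078, adjusted p = 4.27e-05). In SKBR3 the retinoid receptor gene RXRA (0.39 ± 0.037, adjusted p = 6.76e-06), PPARA (0.55 ± 0.078, adjusted p = 0.000166) and THRA (0.31 ± 0.058, adjusted p = 0.00156) rose. YY1, a zinc finger factor, fell in MDA-MB-231 (-0.20 ± 0.041, adjusted p = 0.000360) and in SKBR3 (-0.15 ± 0.038, adjusted p = 0.00997). The SKBR3 call of YY1 was lost without MitoQ 2 (adjusted p = 0.129) and in the single fit over 16 libraries (0.0676). In SKBR3 NFE2L2 lay at -0.12 ± 0.043 (adjusted p = 0.0447), a call lost without any one of the 6 libraries (adjusted p 0.0614 to 0.219). It rose in MDA-MB-231 (0.29 ± 0.044, adjusted p = 1.73e-05). RXRB was listed at 0.0198 CPM in MDA-MB-231 and 0.0482 CPM in SKBR3, and its level is not read here.

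Kinases, deacetylases, corepressors and other controls of PGC-1 showed no common direction. In MDA-MB-231 34 of the 35 genes were tested, 10 higher and 10 lower, with a median of -0.00, and in SKBR3 33 were tested, 5 higher and 5 lower, with a median of -0.01. These counts lay near the shares of all genes given for the partners. The SKBR3 count of 10 fell to 5 in the single fit over 16 libraries and without SKBR3 MitoQ 2 and to 6 without control 1 or control 2. In MDA-MB-231 CRTC1, a coactivator of CREB, rose (0.93 ± 0.069, adjusted p = 1.29e-09), as did the AMPK subunit gene PRKAB2 (0.55 ± 0.061, adjusted p = 3.39e-07) and TFE3, a lysosomal regulator (0.40 ± 0.053, adjusted p = 2.98e-06). The kinase gene CAMK4 (-0.77 ± 0.069, adjusted p = 1.72e-08), the AMPK subunit gene PRKAG2 (-0.70 ± 0.044, adjusted p = 1.03e-10) and MAPK14, which encodes p38 alpha (-0.30 ± 0.039, adjusted p = 2.18e-06), fell.

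In SKBR3 the lysosomal regulator TFEB (0.65 ± 0.094, adjusted p = 0.000199) and CRTC3 (0.22 ± 0.053, adjusted p = 0.00588) rose. ATF2, a factor that acts on the PPARGC1A promoter in brown fat (-0.44 ± 0.070, adjusted p = 0.000445), the AMPK subunit gene PRKAA1 (-0.21 ± 0.041, adjusted p = 0.00184) and NRIP1, the corepressor RIP140 (-0.20 ± 0.042, adjusted p = 0.00266, and 0.0526 in the single fit over 16 libraries), fell. CRTC2 lay at 0.15 ± 0.048 (adjusted p = 0.0295), a call lost without control 2, MitoQ 1, MitoQ 2 or MitoQ 3 (adjusted p 0.0521 to 0.0745). In MDA-MB-231 CRTC2 was called lower with MitoQ (-0.37 ± 0.060, adjusted p = 2.96e-05). PRKAB2, which rose in MDA-MB-231, was called lower in SKBR3 (-0.19 ± 0.064, adjusted p = 0.0405).

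Of 40 target genes of NRF-1 and GABP, 39 were tested. In MDA-MB-231 26 fell and 2 rose, and 11 did not pass, with a median log2 fold change of -0.28, against 27.6% of all genes lower and a median of 0.012. In SKBR3 21 fell and 18 did not pass, with a median of -0.16, against 14.1% of all genes lower. The SKBR3 count of 21 was 14 to 20 with 1 library left out. The list holds many respiratory subunits that other factors act on too, and its counts are a description. In MDA-MB-231 the cytochrome oxidase gene COX7B (-0.84 ± 0.065, adjusted p = 3.14e-09), the outer membrane channel gene VDAC3 (-0.69 ± 0.052, adjusted p = 1.71e-09) and the ATP synthase gene ATP5F1A (-0.64 ± 0.046, adjusted p = 9.78e-10) fell. The 2 that rose were ALAS1, the first enzyme of haem synthesis (0.56 ± 0.048, adjusted p = 8.46e-09), and POLRMT, the mitochondrial RNA polymerase (0.21 ± 0.058, adjusted p = 0.00467). In SKBR3 CYCS, cytochrome c (-0.39 ± 0.047, adjusted p = 4.19e-05), the complex III gene UQCRH (-0.41 ± 0.051, adjusted p = 7.43e-05) and the import receptor gene TOMM70 (-0.34 ± 0.038, adjusted p = 2.02e-05) fell.

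TFAM and TFB2M, factors that package and transcribe mitochondrial DNA, are named for their role, and TFB1M is given beside them. TFAM fell in SKBR3, at 139 ± 3.58 CPM with MitoQ and 163 ± 1.82 in the controls (-0.25 ± 0.040, adjusted p = 0.000412), and lay at -0.15 ± 0.070 in MDA-MB-231 (adjusted p = 0.0828, but 0.00233 without MitoQ 2, 0.00321 with limma voom and 0.0180 in the single fit over 16 libraries). TFB2M fell in MDA-MB-231 (-0.43 ± 0.062, adjusted p = 7.11e-06) and lay at -0.13 ± 0.071 in SKBR3 (adjusted p = 0.201). TFB1M lay at -0.12 ± 0.070 in MDA-MB-231 (adjusted p = 0.168) and -0.27 ± 0.084 in SKBR3 (adjusted p = 0.0259), the second lost without any one of the 6 libraries (adjusted p 0.0505 to 0.107).

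The list of ERR-alpha targets holds ESRRA and GABPA themselves and shares genes with the list before. In MDA-MB-231 13 of 24 tested genes fell, ESRRA among them, 3 rose and 8 did not pass (median -0.17). In SKBR3 12 of 23 fell, GABPA among them, 3 rose, ESRRA among them, and 8 did not pass (median -0.16). With 1 SKBR3 library left out, 11 to 14 genes of this list were called in either direction. Of all genes, 27.6% were lower in MDA-MB-231 and 14.1% in SKBR3. The third that rose in MDA-MB-231, beside VEGFA and CPT1B, was SPP1 (0.53 ± 0.19, adjusted p = 0.0270), at 1.69 CPM with MitoQ and 1.19 CPM in the controls. The complex III gene UQCRFS1 (-0.64 ± 0.046, adjusted p = 8.34e-10), FH, fumarase (-0.57 ± 0.054, adjusted p = 4.26e-08), and CS, citrate synthase (-0.49 ± 0.042, adjusted p = 1.10e-08), fell in MDA-MB-231. In SKBR3 CPT1A, which brings fatty acids into mitochondria (-0.39 ± 0.035, adjusted p = 4.63e-06), FH (-0.27 ± 0.038, adjusted p = 0.000165) and CYCS fell.

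VEGFA, the angiogenic growth factor, rose in both lines, to 471 ± 11.2 CPM with MitoQ against 230 ± 10.6 in MDA-MB-231 controls (1.05 ± 0.042, adjusted p = 1.51e-13), and to 112 ± 3.86 against 87.9 ± 4.10 in SKBR3 controls (0.32 ± 0.042, adjusted p = 9.91e-05). CPT1B, the muscle form of CPT1A, rose in SKBR3 (0.42 ± 0.11, adjusted p = 0.00834) and lay at 0.28 ± 0.10 in MDA-MB-231 (adjusted p = 0.0296, lost without control 2, control 5, MitoQ 1, MitoQ 4 or MitoQ 5, at 0.0607 to 0.0910). PERM1 and WNT11 were under 0.5 CPM in both lines.

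Of 16 genes known as PGC-1alpha targets in brown fat, muscle or the antioxidant response, 12 were tested in each line. Of these 3 rose and 5 fell in MDA-MB-231, where 29.9% of all genes were higher and 27.6% lower. In SKBR3 1 rose and 6 fell, where 13.8% of all genes were higher and 14.1% lower. PPARGC1A was near 0 in SKBR3, and whether PGC-1alpha acts on these genes in either line was not tested. The SKBR3 count of 7 fell to 4 in the single fit over 16 libraries. UCP1, the uncoupling protein of brown fat, and CIDEA were listed at 0.00 CPM in both lines, and ELOVL3 and FNDC5 were under 0.5 CPM. DIO2, which activates thyroid hormone, fell in MDA-MB-231 to 14.3 ± 2.07 CPM with MitoQ, against 30.2 ± 3.56 (-1.05 ± 0.097, adjusted p = 6.05e-08), and in SKBR3 to 28.4 ± 0.939, against 41.8 ± 4.0 (-0.58 ± 0.069, adjusted p = 3.93e-05). The hydrogen peroxide enzymes CAT (catalase) and PRDX3 fell in both lines, CAT by -0.73 ± 0.059 (adjusted p = 4.18e-09) in MDA-MB-231 and -0.47 ± 0.055 (adjusted p = 3.91e-05) in SKBR3, and PRDX3 by -0.66 ± 0.055 (adjusted p = 6.62e-09) and -0.43 ± 0.041 (adjusted p = 8.14e-06). PRDX5 rose in MDA-MB-231 (0.73 ± 0.088, adjusted p = 5.19e-06) and UCP2 in SKBR3 (0.22 ± 0.043, adjusted p = 0.00200, and 0.0995 in the single fit over 16 libraries). In MDA-MB-231 UCP2 was called lower with MitoQ (-0.44 ± 0.11, adjusted p = 0.00208). GPX1 lay at 0.21 ± 0.072 in MDA-MB-231 (adjusted p = 0.0187), lost without control 4, MitoQ 3 or MitoQ 5 (adjusted p 0.0528 to 0.0554).

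**Figure D5:**
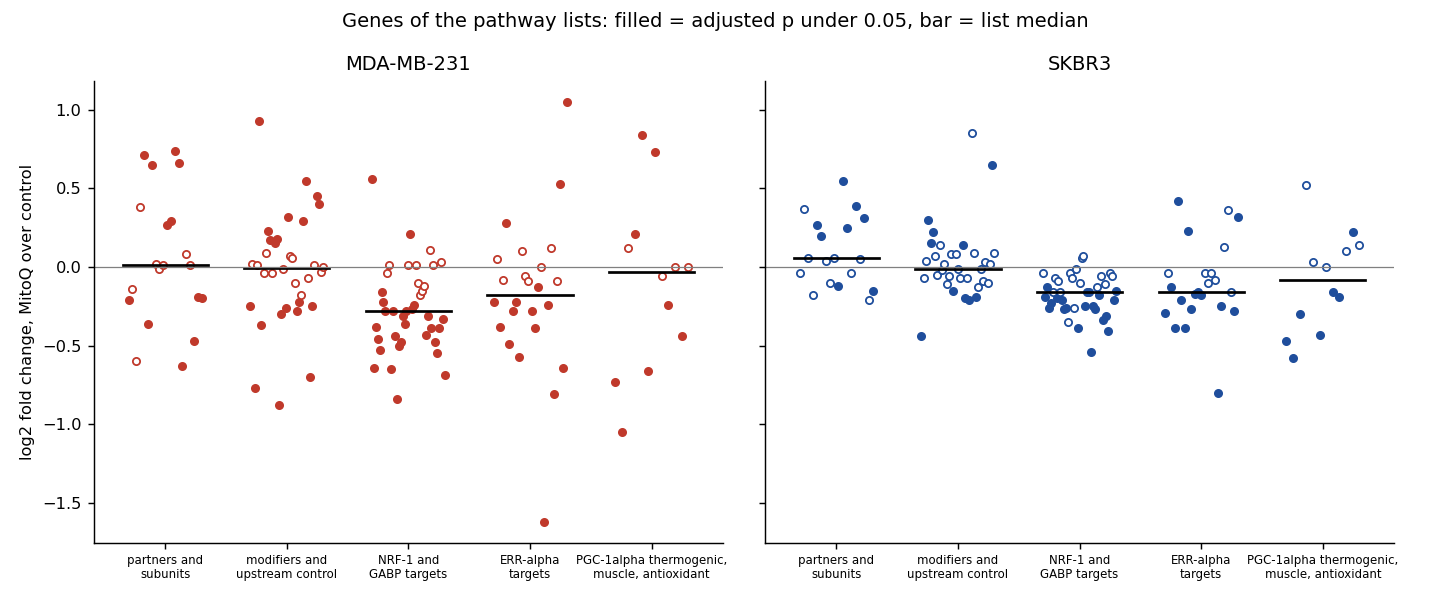
Log2 fold change of MitoQ over control for each tested gene of the 5 lists in MDA-MB-231 and SKBR3, filled where the adjusted p was under 0.05, with the list median as a bar. The NRF-1 and GABP targets lay mostly below 0, with medians of -0.28 in MDA-MB-231 and -0.16 in SKBR3, while partners and controls scattered on both sides.

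The protein-coding genes with the pattern over the 4 groups closest to that of each gene were ranked by the root mean square difference of centred mean log2(CPM + 0.5), among 11284 or 11285 candidates. For PPARGC1B they were F11R, TBX3 and FAM110A (0.0474 to 0.0776), for ESRRA SNX8, HSPA2 and HDHD3 (0.0244 to 0.0311) and for PPARGC1A ADORA2B, DRAP1 and VIRMA (0.0347 to 0.0436). For PPRC1 they were NBPF15, NEO1 and WDR6 (0.0219 to 0.0288), for NRF1 RPS21, PWWP3A and SLC35C1 (0.0209 to 0.0224) and for GABPA EXD2, NDUFS7 and PRKAR1A (0.0163 to 0.0200). The closest matches are descriptions over 4 group means, and none of the 6 genes was among the 3 closest to another. In SKBR3 PPARGC1A averaged 0.120 CPM, under the added 0.5, so its value there was set mostly by that offset. Its closest genes match the pattern so damped, not its full difference between the lines.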

How the data were processed

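The values are estimated counts per gene as deposited by the authors; all were whole and none was negative, and library totals differed. Salmon, edgeR and the build GRCh38 are named per the submitters' processing notes; versions, annotation release, strand setting and rounding are not given in the sources used here. Columns were matched to samples by the names in the labels. Of 35106 rows 35003 matched GENCODE release 29 by ID, which gave positions, exon lengths and 31-base stretches shared with other genes.

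The test was the robust, two-sided quasi-likelihood F test of edgeR 4.0.16 under R 4.3.3, after filterByExpr and TMM scaling, with Benjamini-Hochberg adjustment over all genes tested. Dividing the size of the log2 fold change by the root of the F value gave the SE, and 95% intervals reach 1.96 SE to each side. Each line had its own fit for MitoQ against control; 1 interaction model of 16 libraries gave the difference of effects, and the controls alone gave the comparison of lines. Levels use 1 TMM scaling over 16 libraries, so they differ slightly from the fits. The fits were tested on simulated data with known changes.

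The genes, lists and comparisons were chosen with earlier results of these data known. All 6 genes are given. So are the 3 called genes of smallest p per list, line and direction at a mean of at least 5 CPM. TFAM, TFB1M, TFB2M, the GABP beta subunits, NFE2L2 in MDA-MB-231, RXRB, SPP1 and the overlapping genes ATP5PF and TRMT112 were added for their role. Other genes near 0 were added to account for the lists. UCP2, CRTC2 and YY1 in MDA-MB-231 and PRKAB2 in SKBR3 were added to show the other line, without the alternatives. A gene named for only 1 line may be called in the other too. The 3 closest genes had a mean of at least 5 CPM. Alternatives were RLE size factors, plain totals, DESeq2 1.42.0, limma 3.58.1 (voom, quality weights), a filter at 1 CPM or none, a fit over all 16 libraries, a replicate block, removal of genes encoded in mitochondria and removal of each library, and the longest transcript as length.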

Additional observations from a re-analysis of the deposited data

Results flagged for a closer look

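The effect of MitoQ differed between the lines, by the interaction term in edgeR, for PPARGC1B (0.66 on the log2 scale, SKBR3 minus MDA-MB-231, adjusted p = 1.37e-07), for ESRRA (0.50, adjusted p = 0.000309) and for NRF1 (0.47, adjusted p = 6.06e-05). All 3 differences had this sign in each of the 16 fits that leave out 1 library. In the 12 sets of 5 MDA-MB-231 libraries no library stood apart from the rest of its group for any of the 6 genes, by Dixon's test at 0.71. The SKBR3 groups of 3 libraries were too small for that test.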

How the results depend on the processing

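Of 435 comparisons of a member's result with an alternative, 403 kept the direction and the side of the threshold, and the cause of the others was not tested. The 435 include PPARGC1A in the difference of effects and between the control lines, for which no test is given above. The count is therefore no measure of how firm the results of the members are. In MDA-MB-231, plain library totals gave 0.02 for PPARGC1A, and called PPRC1 (0.15) and GABPA (0.16), which made 5 members called in place of 3. In SKBR3, GABPA was not called with plain library totals (-0.16), DESeq2 (-0.17) or the single fit over 16 libraries (-0.15), in which 2788 genes were called in place of 4202. For the difference between the lines GABPA was called with RLE size factors (-0.25), plain library totals (-0.32), DESeq2 (-0.25), a filter at 1 CPM (-0.25) and mitochondrial genes left out (-0.26). NRF1 between the control lines was not called with a filter at 1 CPM (-0.08).

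With 1 library left out, the values in MDA-MB-231 ranged from -0.10 to 0.02 for PPARGC1A. In SKBR3 they ranged from 0.15 to 0.24 for PPRC1, -0.21 to -0.11 for GABPA and 0.19 to 0.32 for ESRRA, with 0 to 2 members called and 2565 to 4547 genes called. Without SKBR3 MitoQ 2, where no member was called, 2565 genes were. For the difference they ranged from -0.29 to 0.93 for PPARGC1A, 0.10 to 0.19 for PPRC1 and -0.27 to -0.16 for GABPA, with 3 to 5 members called, and between the control lines from -0.19 to -0.12 for NRF1. With a replicate block no member's call changed: PPARGC1B stayed at -0.66 in MDA-MB-231. Same-numbered libraries correlated between -0.23 and 0.14 in their deviations from the group means, so the numbers were not taken as pairs.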
